A study of Mus musculus with 6 samples.

Results

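MHC class I molecules display peptides from the inside of a cell to CD8+ T cells. The 10 genes described here encode that display line in mouse Paneth cells (PCs): the class I heavy chains H2-K1 and H2-D1, their light chain B2m, the peptide transporter and loading proteins Tap1, Tap2 and Tapbp, the inducible proteasome subunits Psmb8, Psmb9 and Psmb10, and the regulator Nlrc5. They were chosen by name and function and found by Ensembl identifier among 55414 genes in the deposited count table. All 10 passed the filter on low counts, which left 13026 genes to test. PCs are the granule-rich secretory cells that sit lowest in the crypts of the gut. They had been sorted from the small intestine of C57BL/6J mice 15 h after an injection, for bulk RNA sequencing. There were 3 mice injected with PBS, the control, and 3 injected with tumour necrosis factor (TNF), with 1 library per mouse. Every mouse, controls included, was a knockout of Ifnar1, one of the genes for the receptor of type I interferon. The labels give no age, sex, TNF dose or knockout allele. The comparison addresses how class I transcripts in PCs differ 15 h after TNF when the type I interferon receptor is missing.

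Proteins in the cytosol are cut into peptides by the proteasome. In cells exposed to interferon gamma or TNF, the catalytic subunits Psmb5, Psmb6 and Psmb7 can be replaced in newly built particles by Psmb8, Psmb9 and Psmb10, which gives the immunoproteasome. The Tap1 and Tap2 proteins pump the peptides into the endoplasmic reticulum, where tapasin (Tapbp) holds an empty heavy chain with B2m close to the transporter until a peptide fits. Nlrc5 is a transactivator of class I promoters. Those promoters can also carry kappaB sites, bound by NF-kappaB factors downstream of TNF, and interferon-stimulated response elements (ISRE), bound by interferon regulatory factors.

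Of the members, 7 lie on chromosome 17, in or near the major histocompatibility complex, 2 on chromosome 8 and 1 on chromosome 2. Psmb9, Tap1, Psmb8 and Tap2 stand side by side within 34.9 kb of chromosome 17 (GRCm39, 34400960 to 34435829). RefSeq promoter windows, from 250 bases before to 50 bases after a start site, were at hand for 8 members, and no window was used for Tap2 and Nlrc5. The 250 bases before the start are shown for 5 members. They were picked because the heavy chain pair shares much of its promoter and Tap1 shares its own with Psmb9. B2m and Psmb8 are shown for their exact matches to the interferon-type patterns defined below. Each is written 5′ to 3′ on the strand of the gene and was found once in GRCm39, at chr17:34219322-34219571 (minus strand) for H2-K1, chr17:35481820-35482069 (plus) for H2-D1, chr2:121977918-121978167 (plus) for B2m, chr17:34416919-34417168 (plus) for Psmb8 and chr17:34406280-34406529 (plus) for Tap1. Capitals mark matches to the ISRE (GAAA, any 2 bases, GAAA), to the gamma-activated site (GAS, TTCNNNGAA) or to the kappaB motif, on either strand.
H2-K1: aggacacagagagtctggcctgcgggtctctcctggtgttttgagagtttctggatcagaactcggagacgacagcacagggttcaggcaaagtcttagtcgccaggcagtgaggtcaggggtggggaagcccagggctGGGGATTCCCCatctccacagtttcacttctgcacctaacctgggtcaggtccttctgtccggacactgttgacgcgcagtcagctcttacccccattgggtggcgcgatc
H2-D1: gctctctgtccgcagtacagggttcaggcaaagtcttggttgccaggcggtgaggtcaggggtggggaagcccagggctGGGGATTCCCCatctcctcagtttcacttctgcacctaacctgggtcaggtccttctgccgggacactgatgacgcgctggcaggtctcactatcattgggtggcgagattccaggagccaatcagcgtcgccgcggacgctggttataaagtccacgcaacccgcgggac
B2m: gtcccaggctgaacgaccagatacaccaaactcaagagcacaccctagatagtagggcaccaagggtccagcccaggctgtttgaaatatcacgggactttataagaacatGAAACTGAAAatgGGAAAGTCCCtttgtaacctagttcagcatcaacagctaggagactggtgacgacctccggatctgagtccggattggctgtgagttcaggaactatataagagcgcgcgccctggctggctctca
Psmb8: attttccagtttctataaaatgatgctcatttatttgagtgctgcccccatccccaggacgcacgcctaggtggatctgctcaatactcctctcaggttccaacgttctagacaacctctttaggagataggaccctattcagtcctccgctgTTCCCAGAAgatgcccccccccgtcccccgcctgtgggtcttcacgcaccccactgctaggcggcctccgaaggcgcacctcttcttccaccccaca
Tap1: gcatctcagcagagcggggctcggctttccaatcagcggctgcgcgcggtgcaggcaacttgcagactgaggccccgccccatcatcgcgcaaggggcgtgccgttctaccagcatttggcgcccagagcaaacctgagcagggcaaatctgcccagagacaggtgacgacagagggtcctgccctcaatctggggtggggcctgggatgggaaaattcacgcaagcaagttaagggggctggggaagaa

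The capitals in H2-K1 and H2-D1 are a kappaB match in the same sequence context, 111 bases before the RefSeq start of H2-K1 and 171 before that of H2-D1, each with an overlapping copy 1 base on. H2-K1 has another RefSeq window, not shown, with this match 125 bases before its start. In the better alignment of the H2-D1 window with either H2-K1 window, the aligned parts were 88.9% identical over 253 bases. In B2m, an ISRE match 139 bases before the start was followed by a kappaB match at 126 bases. The capitals in Psmb8 are a GAS match, 97 bases before the start. The Tap1 and Psmb9 windows shared 275 of 300 bases, read in opposite directions, and held none of these 3 motifs. Among 32851 RefSeq windows of the same length, 3.44% held the ISRE, 8.3% the GAS and 8.46% the kappaB motif, against 1, 1 and 3 of the 8 member windows. A CCAAT box (CCAAT), which NF-Y binds, was present in 6 of the 8 and in 37.4% of all windows. These matches describe letters and do not show that a factor binds. Only exact matches were sought, so a window without one can still hold a variant site.

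Library totals ranged from 12747484 to 17039511 counts, and a count of 0 at these depths allows up to 0.176 to 0.235 CPM (counts relative to the scaled library size, which is the level used below), for counting error only. One library stood apart. Over the tested genes, the log2 CPM of TNF replicate 1 correlated with the PBS libraries at r = 0.937 to 0.945 and with the other TNF libraries at 0.883 to 0.884, whereas TNF replicates 2 and 3 correlated with each other at 0.954 (across genes, which are not independent replicates). Whether the label or the injection of that mouse is in doubt was not tested. The members' values, the list medians and the calls in each list are therefore given over all 6 libraries and without TNF replicate 1, and other single genes over all 6 unless stated. That library was left out for its overall profile, which includes these genes, so the values without it describe how far 1 library carries the result and are not a separate comparison. Counts of Y-linked genes were 846 in PBS replicate 3, 669 in TNF replicate 3 and at most 2 elsewhere, so each group held 1 library with such counts above 2. Xist, which is transcribed from an inactive X chromosome, was at 9.40 CPM in PBS replicate 3, at 192 CPM in TNF replicate 3 and at 355 to 1177 CPM in the other 4, so TNF replicate 3 carried both marks although the labels give 1 mouse per library. Lyz1, the PC lysozyme, was at 134153 to 226165 CPM.

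Ifnar1 transcripts were counted in every library, at 5.19, 8.88 and 9.55 CPM in PBS replicates 1, 2 and 3 and at 5.18, 7.78 and 12.7 CPM in TNF replicates 1, 2 and 3. The groups overlapped. Without a wild-type library or the position of the deletion, these counts over the whole gene neither check nor contradict the genotype. In all values below, libraries are given in the order of replicates 1, 2 and 3.

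In PCs of TNF-injected mice, 9 of the 10 class I genes had a higher mean than in PBS, and the highest libraries were TNF replicates 2 and 3. In each of those, 9 members lay above all 3 PBS libraries. The median difference of all 10 members from the PBS mean, on the log2 scale, was 1.78 in replicate 2 and 1.5 in replicate 3, while it was -0.10 in TNF replicate 1. Across all tested genes, TNF replicates 2 and 3 both lay above all PBS libraries in 24.1%. TNF replicate 1 was within the PBS range for H2-K1, Tap1, Tap2 and Psmb8, above it for B2m, Psmb9 and Psmb10, and below it for H2-D1, Tapbp and Nlrc5. Hence all 3 TNF libraries exceeded all 3 PBS libraries for 3 members, B2m, Psmb9 and Psmb10, against 9.07% of all genes. In bulk samples, fewer cells of a type and less RNA per cell cannot be told apart.

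Over all 6 libraries, 0 of the 10 members passed 5% (adjusted p under 0.05, edgeR's quasi-likelihood test with Benjamini-Hochberg adjustment over all genes), and neither did any of the 13026 tested genes (0.0%). At an unadjusted p under 0.05, 8 members were higher and 0 lower, where 8.25% of all genes were higher. The median log2 fold change of the members was 1.26, against -0.00 over all tested genes. DESeq2 on the same counts called 6 members higher (B2m, Tap1, Tap2, Tapbp, Psmb8 and Psmb10; 1.75% of all genes with an adjusted p). Sample weights in limma-voom, which lower the weight of libraries that deviate, gave 8, all but H2-K1 and Nlrc5 (7.06% of all genes). Without weights, limma-voom called 0 members, with 7 at an unadjusted p under 0.05, as were 1670 of the 13026 tested genes in either direction. Without TNF replicate 1, edgeR called the same 8 higher, against 9.1% of all genes, and the median of the 10 members was 1.64. Leaving out TNF replicate 2 instead called 0 members, and lowered the log2 fold change from 1.27 to 0.72 for H2-D1, from 1.46 to 0.89 for Tapbp, from 1.77 to 1.18 for Tap1, from 2.62 to 1.82 for Tap2 and from 0.29 to 0.02 for H2-K1. Over all fits tried, the highest adjusted p was 0.915 for H2-D1 and 0.897 for each of the other 7. The lowest ran from 0.0116 for Psmb9 to 1.5e-13 for Tap2. The value for Psmb9 came from edgeR without TNF replicate 1. That for Tap2 came from edgeR on all 6 libraries without the low-count filter. With the filter, edgeR gave an adjusted p of 0.276 at nearly the same log2 fold change (2.62, against 2.58 without it), so that low value depends on the filter. For H2-K1 the range was 0.169 to 0.989 and for Nlrc5 0.795 to 0.985.

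**Figure D1:**
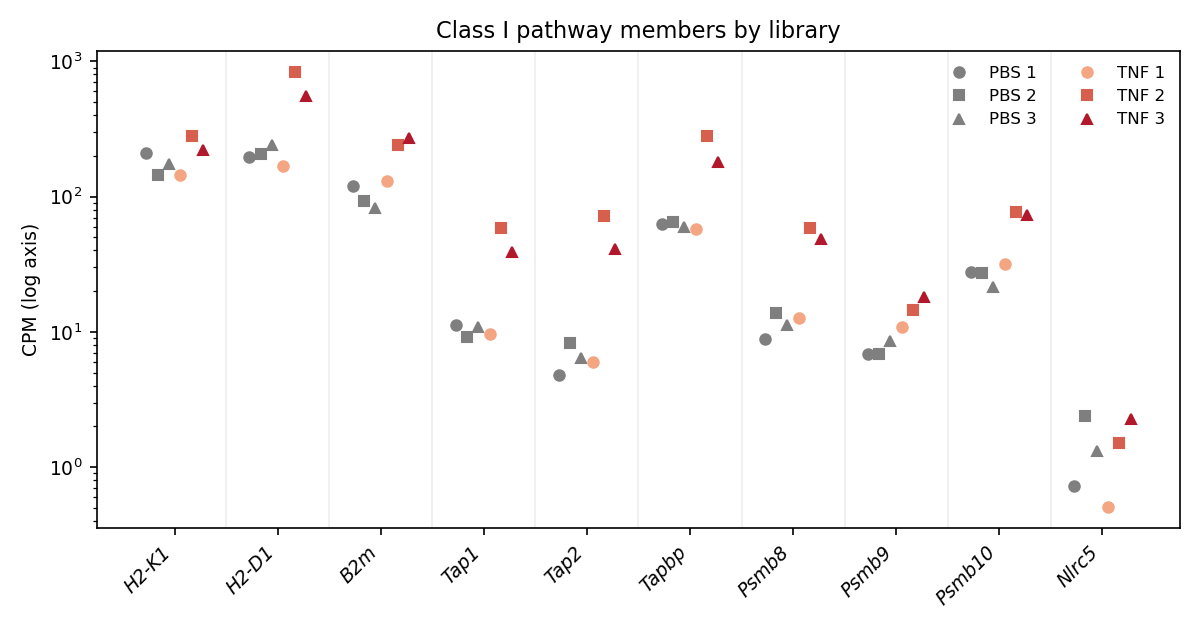
Level of each of the 10 class I genes in each library, in CPM on a log axis, with grey symbols for the 3 PBS libraries and orange to red symbols for the 3 TNF libraries. TNF replicates 2 and 3 lie above all PBS libraries in 9 genes, and TNF replicate 1 lies above them in 3.

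The heavy chains H2-K1 and H2-D1, which bind the peptide, differed from each other. H2-D1 (ENSMUSG00000073411, chromosome 17, 35481691 to 35486475) was at 198, 205 and 239 CPM in PBS and at 168, 827 and 553 CPM in TNF. TNF replicate 1 was the lowest of the 6 libraries and replicates 2 and 3 the highest, so the groups overlapped. Its log2 fold change was 1.27 (SE 0.48, adjusted p 0.344, edgeR), and it was 1.71 (SE 0.25, adjusted p 0.00119) without TNF replicate 1, a 3.27-fold difference.

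H2-K1 (ENSMUSG00000061232, chromosome 17, 34214987 to 34219321) was at 209, 144 and 174 CPM in PBS and at 145, 280 and 220 CPM in TNF. TNF replicate 3 lay just above the highest PBS library, and TNF replicate 1 was within the PBS range. Its log2 fold change was 0.29 (SE 0.29, 95% interval -0.27 to 0.86, adjusted p 0.720), and 0.53 (SE 0.24, adjusted p 0.169) without TNF replicate 1, so H2-K1 passed in neither fit. The ratio of H2-D1 to H2-K1 counts per length was 0.723, 1.09 and 1.05 in PBS and 0.888, 2.26 and 1.93 in TNF. In TNF replicates 2 and 3, H2-D1 thus stood above H2-K1 by more than in any PBS library, a ratio given without a test. The canonical transcripts of both genes are 90.3% identical over 1475 aligned bases. No stretch of 100 bases of the H2-K1 transcript occurs in another gene of the table, and 4.61% of such stretches of H2-D1 do, in H2-Q1, H2-T9, H2-T23 and others. How reads that fit several genes were counted is not given in the sources used here, so the split between these genes is uncertain.

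B2m (ENSMUSG00000060802, chromosome 2, 121977957 to 121983594), the light chain that every class I heavy chain needs to reach the cell surface, was at 119, 92.3 and 82.4 CPM in PBS and at 131, 241 and 272 CPM in TNF. All TNF libraries were above all PBS libraries, with TNF replicate 1 close to PBS replicate 1. For B2m the log2 fold change was 1.13 (SE 0.31, adjusted p 0.278, edgeR) and 1.41 (SE 0.22, adjusted p 0.00200) without TNF replicate 1. Per kb of transcript, the mean PBS levels of H2-K1, H2-D1 and B2m were close, at 108 ± 20.3, 101 ± 10.3 and 90.1 ± 17.3 CPM per kb (SD, n = 3). In TNF they were 133 ± 41.7, 244 ± 156 and 197 ± 68.1 CPM per kb. The ratio of B2m to H2-K1 per length was 0.847, 0.959 and 0.707 in PBS and 1.35, 1.28 and 1.84 in TNF, without overlap.

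Tap2 had the largest difference of the members. Tap2 (ENSMUSG00000024339, chromosome 17, 34422501 to 34435829), one chain of the peptide pump, was at 4.83, 8.28 and 6.39 CPM in PBS and at 5.95, 72.2 and 41.2 CPM in TNF. TNF replicate 1 sat among the PBS libraries, and the other TNF libraries stood far above them. Tap2 had a log2 fold change of 2.62 (SE 0.70, adjusted p 0.276, edgeR) over all libraries. It was 3.14 (SE 0.29, adjusted p 7.72e-05) without TNF replicate 1, which is 8.84-fold.

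Tap1 (ENSMUSG00000037321, chromosome 17, 34405996 to 34416199), the partner chain, was at 11.2, 9.21 and 10.9 CPM in PBS and at 9.60, 58.1 and 38.9 CPM in TNF. The order of libraries was that of Tap2 within TNF, with replicate 2 above replicate 3 and replicate 1 in the PBS range. Its log2 fold change was 1.77 (SE 0.52, adjusted p 0.283), and 2.24 (SE 0.23, adjusted p 1.46e-04) without TNF replicate 1. The Tap2 to Tap1 ratio per length was 0.339, 0.702 and 0.457 in PBS and 0.485, 0.971 and 0.828 in TNF. Tap1 thus exceeded Tap2 per length in all 6 libraries, by least in TNF replicates 2 and 3. Among the bases of the counted Tap2 transcript, 17.2% overlap exons of genes on the other strand. The use of strand in counting is not given in the sources used here, so reads from such overlaps cannot be told apart.

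Tapbp (ENSMUSG00000024308, chromosome 17, 34134873 to 34148267), the tapasin gene, was the most even member in the controls, at 62.6, 65.2 and 59.6 CPM. In TNF it was at 57.2, 279 and 180 CPM, again with replicate 1 at the level of the controls, just below the lowest. For Tapbp the log2 fold change was 1.46 (SE 0.46, adjusted p 0.297), and 1.90 (SE 0.23, adjusted p 3.55e-04) without TNF replicate 1. Exons of other genes cover 30.7% of its transcript.

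**Figure D2:**
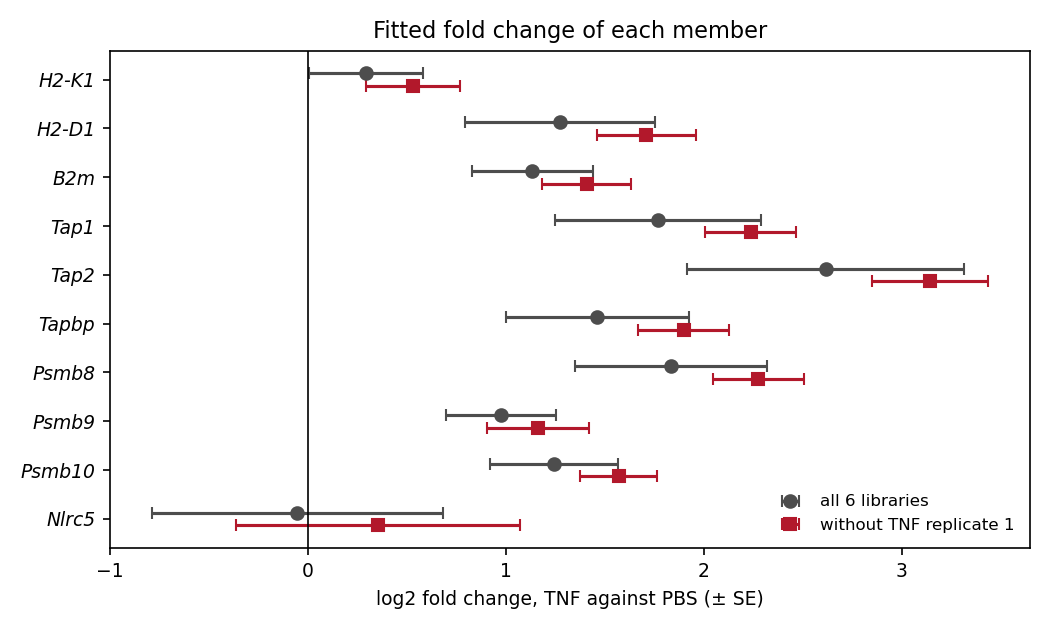
Fitted log2 fold change, TNF against PBS, with its SE for each member, over all 6 libraries (grey circles) and without TNF replicate 1 (red squares). Tap2 has the highest value in both fits, 2.62 and 3.14, and H2-K1 and Nlrc5 lie closest to 0.

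The 3 inducible catalytic subunits of the proteasome had higher means in TNF, by unequal amounts. Psmb8 (ENSMUSG00000024338, chromosome 17, 34416690 to 34420428), the chymotrypsin-like subunit also called LMP7, was at 8.87, 13.8 and 11.2 CPM in PBS and at 12.7, 59.0 and 49.0 CPM in TNF. TNF replicate 1 was inside the PBS range. Psmb8 had a log2 fold change of 1.83 (SE 0.48, adjusted p 0.270), and 2.28 (SE 0.23, adjusted p 1.27e-04) without TNF replicate 1.

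Psmb10 (ENSMUSG00000031897, chromosome 8, 106662362 to 106665077), also called MECL-1, was at 27.7, 27.3 and 21.4 CPM in PBS and at 31.6, 76.6 and 72.5 CPM in TNF. All TNF libraries were above all PBS libraries. The log2 fold change was 1.24 (SE 0.32, adjusted p 0.270), and 1.57 (SE 0.19, adjusted p 4.22e-04) without TNF replicate 1. It is the inducible subunit outside the chromosome 17 cluster, and no other gene's exons overlap its transcript.

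Psmb9 (ENSMUSG00000096727, chromosome 17, 34400960 to 34406738), also called LMP2, was at 6.85, 6.81 and 8.52 CPM in PBS and at 10.9, 14.5 and 18.2 CPM in TNF. The groups did not overlap, and TNF replicate 1 was the lowest of the TNF libraries. The log2 fold change was 0.97 (SE 0.28, adjusted p 0.278), and 1.16 (SE 0.26, adjusted p 0.0116) without TNF replicate 1. Exons of Tap1, on the opposite strand, overlap 38.1% of the Psmb9 transcript, and the overlap is 11.7% of the Tap1 transcript. Since the strand setting is open, reads from that overlap may be counted for either gene or for neither. The ratio of Psmb8 to Psmb9 per length was 1.03, 1.61 and 1.04 in PBS and 0.925, 3.22 and 2.14 in TNF.

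Each inducible subunit was then set against the constitutive subunit whose place it takes, within each library, so that no scaling enters. The Psmb8 to Psmb5 ratio of counts per length was 0.408, 0.649 and 0.418 in PBS and 0.3896, 1.82 and 1.22 in TNF. Psmb8 thus exceeded Psmb5 in TNF replicates 2 and 3 and in no other library. Psmb10 to Psmb7 was 0.596, 0.603 and 0.540 in PBS and 0.503, 0.983 and 0.958 in TNF, near parity in the latter 2. Psmb9 to Psmb6 stayed low throughout, at 0.0877, 0.0776 and 0.0872 in PBS and 0.0835, 0.109 and 0.115 in TNF. The level of this ratio is uncertain, because Tap1 exons overlap 38.1% of the Psmb9 transcript. The mean log2 ratio was higher in TNF by 0.99, 0.43 and 0.27, with p = 0.4, 0.4 and 0.3 in that order (two-sided exact permutation test over libraries, n = 3 per group, adjusted p 0.4 for each over the 3 pairs). With 3 against 3 libraries the smallest p that this test can give is 0.1. In every pair TNF replicate 1 lay in or below the PBS range. Without it the differences were 1.64, 0.74 and 0.42.

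**Figure D3:**
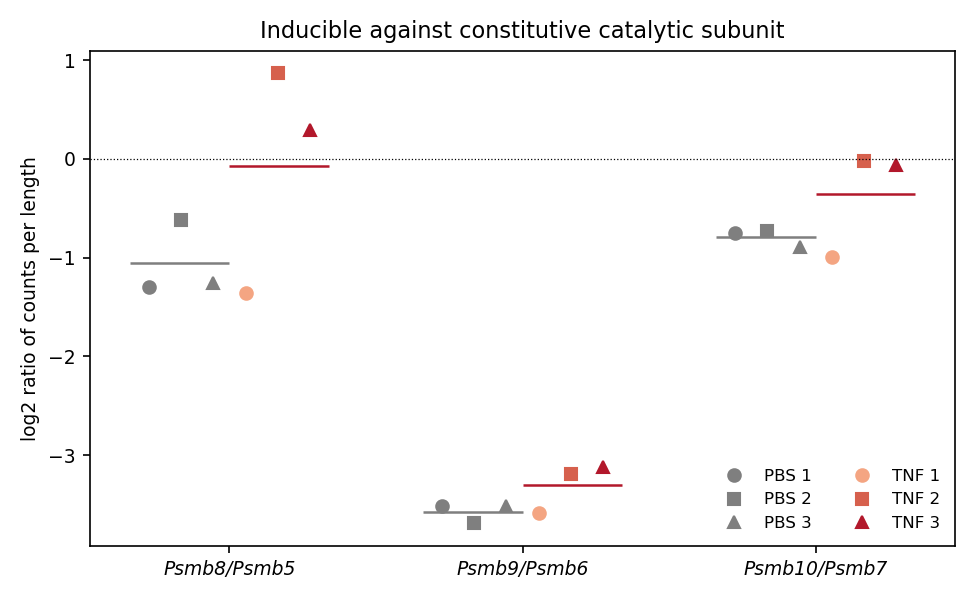
Log2 ratio of counts per length of each inducible proteasome subunit to its constitutive counterpart, by library, with a line at the group mean. The ratios are highest in TNF replicates 2 and 3 for all 3 pairs, and TNF replicate 1 is within or below the PBS range.

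Nlrc5 (ENSMUSG00000074151, chromosome 8, 95160984 to 95253900) had few counts. It was at 0.721, 2.40 and 1.32 CPM in PBS and at 0.510, 1.52 and 2.25 CPM in TNF, which are 10, 36, 18, 6, 31 and 28 counts. The groups overlapped. The log2 fold change was -0.05 (SE 0.74, 95% interval -1.5 to 1.39, adjusted p 0.983), an interval that holds the values of 5 other members. It was 0.35 (SE 0.72, 95% interval -1.05 to 1.76, adjusted p 0.795) without TNF replicate 1, so a difference was not detectable with these counts and this spread between mice. Per kb, Nlrc5 was the lowest member, at 0.196 ± 0.112 in PBS and 0.188 ± 0.116 CPM per kb in TNF (SD, n = 3).

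Per length, the order of the PBS means ran from the class I chains to Tapbp (21.0 ± 0.945), Psmb10 (19.4 ± 2.7), Psmb8 (6.63 ± 1.45), Psmb9 (5.47 ± 0.722), Tap1 (3.36 ± 0.347), Tap2 (1.63 ± 0.434) and Nlrc5, all in CPM per kb as mean ± SD of 3 libraries. Neighbours closer than the larger of their SDs were H2-K1 and H2-D1, H2-D1 and B2m, Tapbp and Psmb10, and Psmb8 and Psmb9. Together the 10 genes held 0.0621%, 0.0635% and 0.0656% of all counts in PBS and 0.0456%, 0.229% and 0.132% in TNF. The spread between PBS mice was small for most members: no PBS library was further than 0.38 from the PBS mean on the log2 scale except for Nlrc5 (0.79).

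The rest of the pathway was read from the same fit, over 85 further genes in 6 lists, of which 72 were tested. As for the members, 0 passed 5% over all 6 libraries (edgeR). An unadjusted p under 0.05 was reached by 26 of them on the higher side and by 2 on the lower. Of all genes, 8.25% reached it on the higher side and 12.3% in either direction. DESeq2 called 9 (2.06% of all genes in either direction) and limma-voom with sample weights 25 (11.5%). With TNF replicate 1 left out, 28 passed as higher and 4 as lower, against 9.1% and 5.4% of all genes.

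The other class I and class I-like genes behaved unevenly. Of 18, 10 were tested, with a median log2 fold change of 0.28, or 0.60 without TNF replicate 1. H2-Q4, whose product is a nonclassical class I chain, was at 4.62, 7.21 and 6.76 CPM in PBS, against 6.80, 25.9 and 18.3 CPM in TNF, a log2 fold change of 1.46 (SE 0.45, adjusted p 0.293), or 1.86 (adjusted p 0.00138) without TNF replicate 1. H2-T24 had 1.44 (SE 0.63, adjusted p 0.402) and H2-Q7 1.04 (SE 0.90, adjusted p 0.671), both below 5 CPM in every library. The most abundant, H2-T23 (the Qa-1 chain) and H2-Q2, had values near 0, at 0.03 (SE 0.24) and 0.09 (SE 0.20), with 60.1 ± 12.9 and 48.1 ± 6.56 CPM in PBS (SD, n = 3). Without TNF replicate 1, H2-Q4 and H2-T22 passed as higher and H2-T3 as lower. H2-T3, named here after its values were seen, was at 5.12, 3.20 and 3.01 CPM in PBS, against 6.03, 0.783 and 0.0805 CPM in TNF. Sequence shared among these genes makes the single values uncertain.

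**Figure D4:**
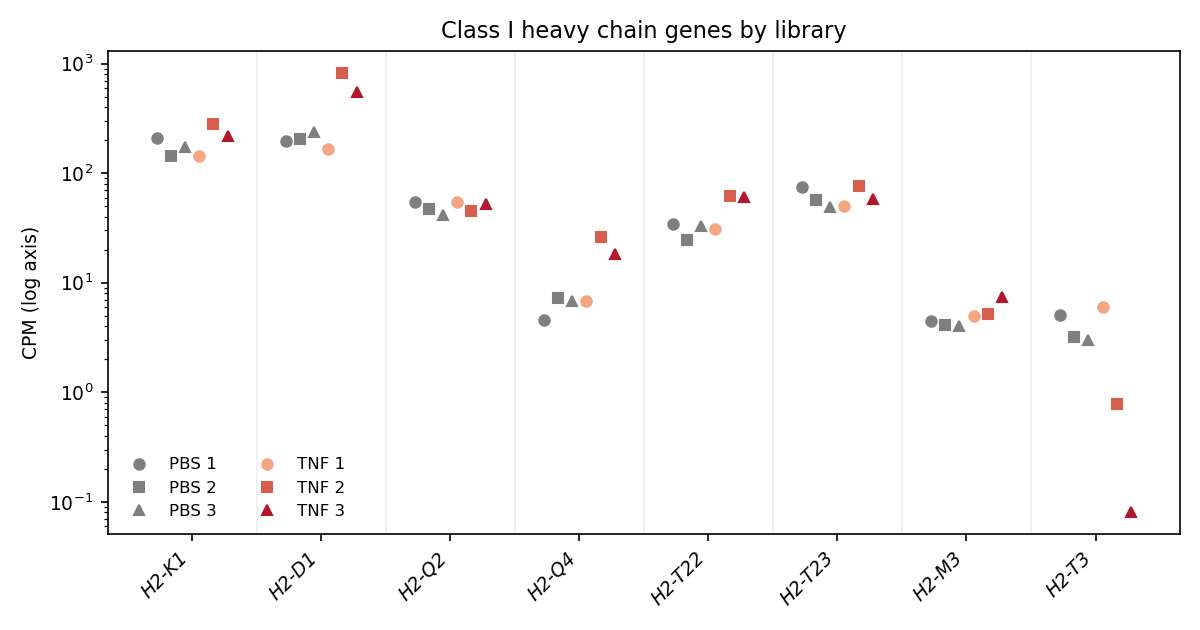
Class I heavy chain genes by library, in CPM on a log axis, with grey symbols for PBS and orange to red for TNF. H2-D1, H2-Q4 and H2-T22 are highest in TNF replicates 2 and 3, H2-T23 and H2-Q2 overlap between groups, and H2-T3 is lowest in TNF replicates 2 and 3.

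Among 11 loading chaperones and peptidases, the median was 0.04, or 0.08 without TNF replicate 1, and 1 gene stood out. Tapbpl, the tapasin-related editor of class I peptides, was at 20.3, 14.2 and 11.98 CPM in PBS, against 13.1, 90.4 and 67.2 CPM in TNF. TNF replicate 1 was again in the PBS range. Its log2 fold change was 1.88 (SE 0.57, adjusted p 0.290), and 2.37 (SE 0.25, adjusted p 1.54e-04) without TNF replicate 1, when it was the one gene of the list to pass. The general chaperones were the most abundant, with log2 fold changes of 0.16 (SE 0.32) for calreticulin (Calr, 702 ± 161 CPM in PBS) and -0.08 (SE 0.26) for Pdia3 (547 ± 113 CPM). The peptidases Thop1 and Lap3 had 0.36 (SE 0.32, adjusted p 0.676) and 0.33 (SE 0.19, adjusted p 0.505).

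The constitutive proteasome had higher means in TNF too. All 14 constitutive 20S subunits had a positive log2 fold change, with a median of 0.73 (0.94 without TNF replicate 1), and in all 14 every TNF library, replicate 1 included, was above every PBS library, where 9.07% of all genes showed this. Psma7, an alpha ring subunit, was at 62.3, 80.6 and 84.8 CPM in PBS, against 114, 206 and 309 CPM in TNF, a log2 fold change of 1.47 (SE 0.35, adjusted p 0.270). Psma5 had 1.34 (SE 0.32, adjusted p 0.270), Psma3 1.26 (SE 0.32, adjusted p 0.270) and Psmb1 0.68 (SE 0.21, adjusted p 0.293). The subunits that the inducible ones replace had values below the median of the list, at 0.59 (SE 0.21, Psmb5), 0.67 (SE 0.20, Psmb6) and 0.72 (SE 0.19, Psmb7). Among the 14, 13 passed as higher without TNF replicate 1, against 9.1% of all genes. The exception was Psmb5 (edgeR adjusted p 0.0579).

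Of 9 activators and assembly factors, with a median of 0.43 (0.64 without TNF replicate 1), Psme1 and Psme2, the chains of the PA28 cap, were higher in all TNF than in all PBS libraries. Psme2 was at 37.9, 45.3 and 47.2 CPM in PBS, against 62.3, 125 and 163 CPM in TNF, a log2 fold change of 1.43 (SE 0.33, adjusted p 0.270), and Psme1 had 0.98 (SE 0.28, adjusted p 0.278). Pomp, the maturation factor that assembling proteasomes need, had 1.29 (SE 0.28, adjusted p 0.270) and Psmg4, an assembly chaperone, 1.40 (SE 0.39, adjusted p 0.278). Psme4, another activator and the most abundant of the list, had -0.26 (SE 0.21, adjusted p 0.656). Leaving out TNF replicate 1, Psme1, Psme2, Pomp and Psmg4 passed as higher and Psmg1 as lower.

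**Figure D5:**
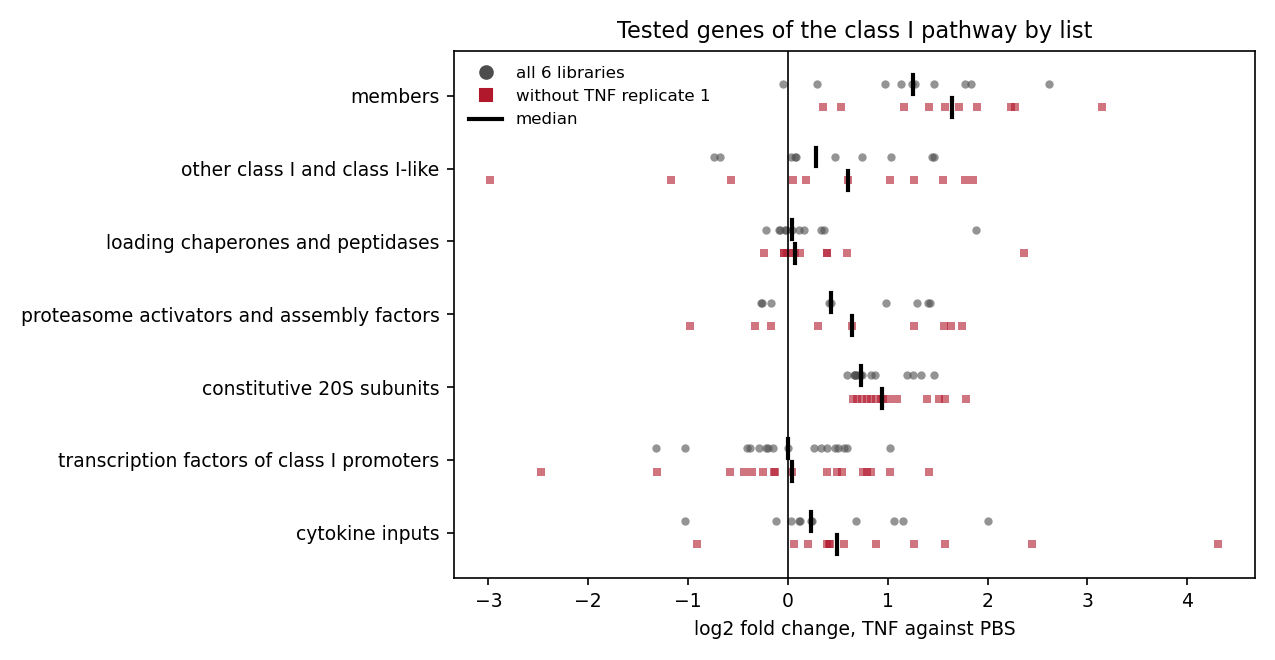
Log2 fold change, TNF against PBS, of each tested gene of the class I pathway by list, over all 6 libraries (grey circles) and without TNF replicate 1 (red squares), with a black line at each median. The medians over all libraries are 1.26 for the members, 0.73 for the constitutive 20S subunits and between 0.00 and 0.43 for the other lists.

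The transcription factors that act on class I promoters had a median of 0.00 over 17 genes, and of 0.04 without TNF replicate 1. Irf1, an interferon regulatory factor known to act on several of these promoters, was at 38.9, 34.04 and 37.6 CPM in PBS, against 33.3, 31.8 and 34.7 CPM in TNF, with a log2 fold change of -0.15 (SE 0.18, 95% interval -0.51 to 0.21, adjusted p 0.780). Rfx5, part of the complex through which Nlrc5 reaches DNA, had -0.22 (SE 0.28, adjusted p 0.790). Irf9, the DNA-binding partner of Stat2, had 1.02 (SE 0.45, adjusted p 0.401). Nfya, a subunit of the CCAAT-binding factor, had -1.03 (SE 0.31, adjusted p 0.293) and Ciita, the class II counterpart of Nlrc5, had -1.32 (SE 0.73, adjusted p 0.490), or -2.47 without TNF replicate 1. The abundant Irf8 and Creb1 were at 0.00 (SE 0.21) and -0.29 (SE 0.25). With TNF replicate 1 left out, Irf9, Stat2, Nfkb1 and Atf1 passed as higher and Ciita and Nfya as lower.

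Among the 16 cytokine input genes, 11 were tested, with a median of 0.23, or 0.49 without TNF replicate 1. The transcripts of Ifng, Ifnb1, Ifnl2 and Ifnl3 had 0 counts in every library, which allows up to 0.176 to 0.235 CPM on the unscaled totals. Ifngr2, the signalling chain of the interferon gamma receptor, was at 32.2, 23.6 and 31.1 CPM in PBS, against 37.8, 162 and 148 CPM in TNF, a log2 fold change of 2.00 (SE 0.47, adjusted p 0.270) and 2.44 (SE 0.21, adjusted p 4.11e-05) without TNF replicate 1. Ifngr1, the binding chain, had 1.07 (SE 0.24, adjusted p 0.270), Tnfrsf1b, a TNF receptor, 1.16 (SE 0.54, adjusted p 0.429), and Jak1, a kinase of the interferon receptors, 0.24 (SE 0.23, adjusted p 0.713). Tnf itself was too low for the filter over all libraries. It had 8, 2 and 9 counts in PBS and 8, 165 and 124 counts in TNF and passed without TNF replicate 1, as did Ifngr1, Ifngr2 and Tnfrsf1b.

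Markers of other cells were read in the same libraries. The immune lists were low and overlapped between groups. Summed T and NK cell markers were 4.18 to 34.6 CPM in PBS and 9.58 to 23.1 CPM in TNF, led by Ptprc, with 8 of 12 markers at 0 in all libraries. Ptprc alone was at 3.90, 25.0 and 33.9 CPM in PBS and at 15.8, 22.7 and 8.86 CPM in TNF, nearly all of each sum. The highest value of any other marker of that list was 0.735 CPM (Itgae, PBS replicate 3), so the sums give no level for those markers. B and plasma cell markers were 0.0721 to 1.91 CPM in PBS and 0.510 to 2.34 CPM in TNF, led by Cd79b. Myeloid markers, led by Lyz2, were 19.2 to 27.3 CPM in PBS and 25.7 to 39.2 CPM in TNF, with TNF replicate 1 at 33.6. S100a9, a neutrophil gene named after its values were seen, had 0 counts in PBS and in TNF replicate 1 and 26 and 13 counts in TNF replicates 2 and 3 (edgeR adjusted p 0.0253 without TNF replicate 1). Endothelial and stromal markers (Col3a1 the highest) reached at most 0.667 CPM and erythroid markers (Alas2 the highest) at most 0.334 CPM in any library.

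The sums of some epithelial marker lists were lower in TNF replicates 2 and 3 than in all PBS libraries, though not every marker in them was. Summed enterocyte markers, led by Anpep, were 320 to 367 CPM in PBS, against 272, 120 and 90.0 CPM in TNF. Stem cell markers, led by Olfm4, were 2609 to 3199 CPM in PBS, against 4755, 939 and 831 CPM in TNF. Olfm4 alone was at 2374, 2224 and 1925 CPM in PBS, against 3887, 233 and 272 CPM in TNF, so it carried most of that contrast. Over all 6 libraries, 7 of the 8 stem cell markers had a negative log2 fold change, among them Lgr5 (-0.15, SE 0.25). The positive one was Slc12a2 (0.12, SE 0.25). Goblet cell markers, led by Agr2, were 4929 to 5250 CPM in PBS, against 4977, 4056 and 4316 CPM in TNF. Without TNF replicate 1 (edgeR), 7 of 10 tested enterocyte, 4 of 8 stem cell and 5 of 8 goblet cell markers passed as lower. No marker of these lists passed as higher. In that fit 5.4% of all genes passed as lower and 9.1% as higher. Tuft cell markers, led by Trpm5, were 456 to 1637 CPM in PBS and 556 to 1121 CPM in TNF, and enteroendocrine markers, led by Chgb, 54.9 to 189 CPM and 38.5 to 122 CPM, with Gip passing as lower. PC markers summed to 366357 to 451858 CPM in PBS and 275859 to 581357 CPM in TNF, with Nupr1 passing as higher and Clps as lower without TNF replicate 1. Whether these markers have a part in the class I values was not tested.

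The genes whose pattern was most like the mean of the members were found by the root-mean-square difference of centred log2 CPM over the 6 libraries, among 9153 genes with a mean of at least 5 CPM. Among the nearest 8 were Ldlrad3, Cirbp, Tpm3, Ugdh, Clic1, Trim25 and Shtn1, at differences of 0.08 to 0.13, where the median of all compared genes was 0.80. Trim25, which encodes a ubiquitin ligase of antiviral sensing, was at 78.3, 78.9 and 73.4 CPM in PBS, against 79.5, 232 and 184 CPM in TNF. The members themselves lay at 0.17 (Tapbp) to 0.74 (Tap2) from their own mean. H2-D1 (0.18) and Psmb10 (0.20) were close to it, and H2-K1 (0.54) and Nlrc5 (0.73) were far. The 6 libraries share the depth and scaling of 1 table, and this likeness is a description.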

How the data were processed

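Total RNA of PCs from 6 mice was sequenced by the authors, and the deposited table holds whole-number counts per Ensembl gene (3 PBS, 3 TNF libraries). The submitters' processing notes name FastQC, Trimmomatic 0.39, STAR 2.7.10a, DESeq2 and mm39, without roles. The counting tool, the strand setting and the annotation release are not stated in those notes or labels. Identifiers were matched to GENCODE M39 (54749 of 55414, with 0.0193% of counts unmatched).

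Genes were kept with filterByExpr (minimum count 10, minimum total 15), scaled by TMM and tested with edgeR 4.0.16 (quasi-likelihood, two-sided, group only) in R 4.3.3. A gene passed at an adjusted p under 0.05 (5%). Values are CPM on scaled library sizes. Intervals are 95% normal intervals from the SE. Per-length levels used the canonical transcript. Alternatives were other scalings and filters, DESeq2 1.42.0, limma-voom (limma 3.58.1), the replicate number as a block, and leaving out each library. Ratios had 0.5 counts added. Promoters came from RefSeq (GRCm38.p6) and were placed on GRCm39 by exact match. The edgeR, DESeq2 and limma-voom fits were tried on simulated counts, with the same dispersion for every gene and no deviating library. That simulation did not include the ratio test, the likeness ranking or the sequence steps.

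From each of the 6 other pathway lists the 3 largest changes and the 2 highest levels are named, with Irf1, Rfx5, Psmb5, Psmb6, Psmb7, Psme1, Psme2, Ifnar1 and Lyz1, and the top gene of each of the 11 marker lists. Other genes are named as passing without TNF replicate 1 or beside the sum of a marker list, and were chosen after their values were seen. A few genes that the rule names are not reported here. The members and lists were chosen with earlier results of these data known.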

Additional observations from a re-analysis of the deposited data

How the results depend on the processing

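The number of genes past 5% depended on the fit. It was 0 for all genes, members and other pathway genes under RLE, upper-quartile and library-size scaling, TMM without genes above 1% of counts, a mean CPM of at least 5 and limma-voom. Without the low-count filter it was 690 genes, 7 members and 14 other pathway genes, with DESeq2 242, 6 and 9, and with sample weights 1501, 8 and 25. Leaving out 1 library at a time gave 0 to 1980 genes, 0 to 8 members and 0 to 32 other pathway genes, where each count above 0 came from leaving out TNF replicate 1. The members' median was 0.97 to 1.64 in those fits. The subunit ratio differences were 0.52 to 1.64 (Psmb8/Psmb5), 0.18 to 0.42 (Psmb9/Psmb6) and 0.26 to 0.74 (Psmb10/Psmb7), and adding 5 counts changed none by more than the spread. Nlrc5 was at -0.51 without TNF replicate 3 and turned positive with sample weights (0.16), without PBS replicate 2 (0.48) and without TNF replicate 1 (0.35), past 5% in none of them. Scaling by library size moved the median of all genes to -0.11. Deviations from the group mean correlated over genes at r = -0.07 to 0.03 between same-numbered PBS and TNF libraries. Between differently numbered libraries the range was -0.06 to 0.07. With 3 libraries per group this cannot show whether the numbers pair the samples. With the replicate block, 0 genes, 0 members and 0 other pathway genes passed and the members' median was 1.12. No paired version of the ratio tests was run. Nlrc5 had 6 to 36 counts per library and the widest spread of the members between PBS mice.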
